A study of Homo sapiens with 28 samples.

Results

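The proteins of the mitochondrial ribosome are encoded in the nucleus, and their gene symbols begin with MRPL for the large subunit and MRPS for the small subunit. All genes with such a symbol followed by a number were taken, whatever their values. This gave 76 of the 19050 genes targeted by a pooled CRISPR knockout screen, which were hit by 425 guide RNAs, and 77 of the 25807 symbols of an RNA-seq table. Of these, 76 were in both tables, and MRPL57 was in the RNA table only.

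Both assays used U2OS, an established human osteosarcoma cell line grown in high-glucose medium. In the screen, cells with wild-type p53 (p53 WT) and p53 knockout cells (p53 KO) carried a pooled guide library. DNA was taken for guide counting when the experiment began (T0), and 96 h later from cells kept in DMSO or in etoposide at 5 µM. The sample titles call the 96 h control untreated, and the series' own design text names DMSO, the solvent. Etoposide traps topoisomerase II on DNA and leaves double-strand breaks. The screen had 18 libraries, 3 in each of 6 groups. For the RNA, recipient cells were p53 WT in all 10 libraries, 2 in each of 5 groups: cells at T0, and cells after 8 h in medium conditioned by p53 WT or p53 KO donors that had been treated with DMSO or with 31.6 µM etoposide. How the knockout line was made, and whether it is 1 clone, is not given in the sources used here. The labels do not say whether the libraries within a group are separate cultures, and p-values therefore measure only how these samples spread.

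The mitochondrial ribosome translates the few proteins encoded by mitochondrial DNA, all of them core subunits of the respiratory chain and of ATP synthase. Many of its proteins descend from those of the bacterial ribosome, and others were added in the lineage of mitochondria. A few names mislead: MRPS30 and MRPS18A sit in the large subunit, and MRPS36 is now known as a subunit of the 2-oxoglutarate dehydrogenase complex, not of the ribosome. In a knockout screen, the guides against a gene that dividing cells need become rarer as the cells grow.

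Screen libraries held between 30437296 and 48230735 counts and RNA libraries between 16825669 and 20290764 counts. Summed over its guides, a mitoribosomal gene had between 561 and 3534 counts in a library, with a median of 1808. The 999 non-targeting guides held between 1.58% and 1.72% of the counts. The osteosarcoma markers SPARC, COL1A1 and VIM were high in all RNA libraries (at least 1810 CPM, the counts-per-million unit), RUNX2 and ALPL were lower (10.4 to 81.3 CPM), and COL1A2 and SP7 did not pass 1.27 CPM. Of the markers of blood, endothelium and liver, none passed 1.4 CPM, and the epithelial markers EPCAM, CDH1 and KRT5 were between 1.36 and 7.05 CPM. The knockout itself could not be checked on transcripts, since no RNA came from knockout cells.

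Guides against mitoribosomal genes became rarer as p53 WT cells grew in DMSO. The whole group held between 3762 and 3779 CPM in the 3 T0 libraries and between 3294.5 and 3403.3 CPM in the 3 DMSO libraries, which did not overlap. Gene by gene, 40 of 76 fell and 0 rose, which is 52.6% of the members, where 5.44% of all 19050 genes were called lower and 1.17% higher (edgeR's quasi-likelihood test on the summed guide counts, Benjamini-Hochberg adjusted p below 0.05). The median log2 fold change was −0.18 (interquartile range −0.26 to −0.09), against 0.00 over all genes. Below 0 were 68 of 76 members, where 47.4% of all genes were. The largest loss was −0.68 on the log2 scale. Guide names begin with HGLibA or HGLibB. With the HGLibB guides alone the count was 22, where 537 of 19044 genes were called in either direction. The genes just inside the threshold were MRPL54 (adjusted p = 0.0349) and MRPL41 (adjusted p = 0.0373), and the genes just outside it were MRPL49 (adjusted p = 0.0581) and MRPS7 (adjusted p = 0.0719).

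**Figure D1:**
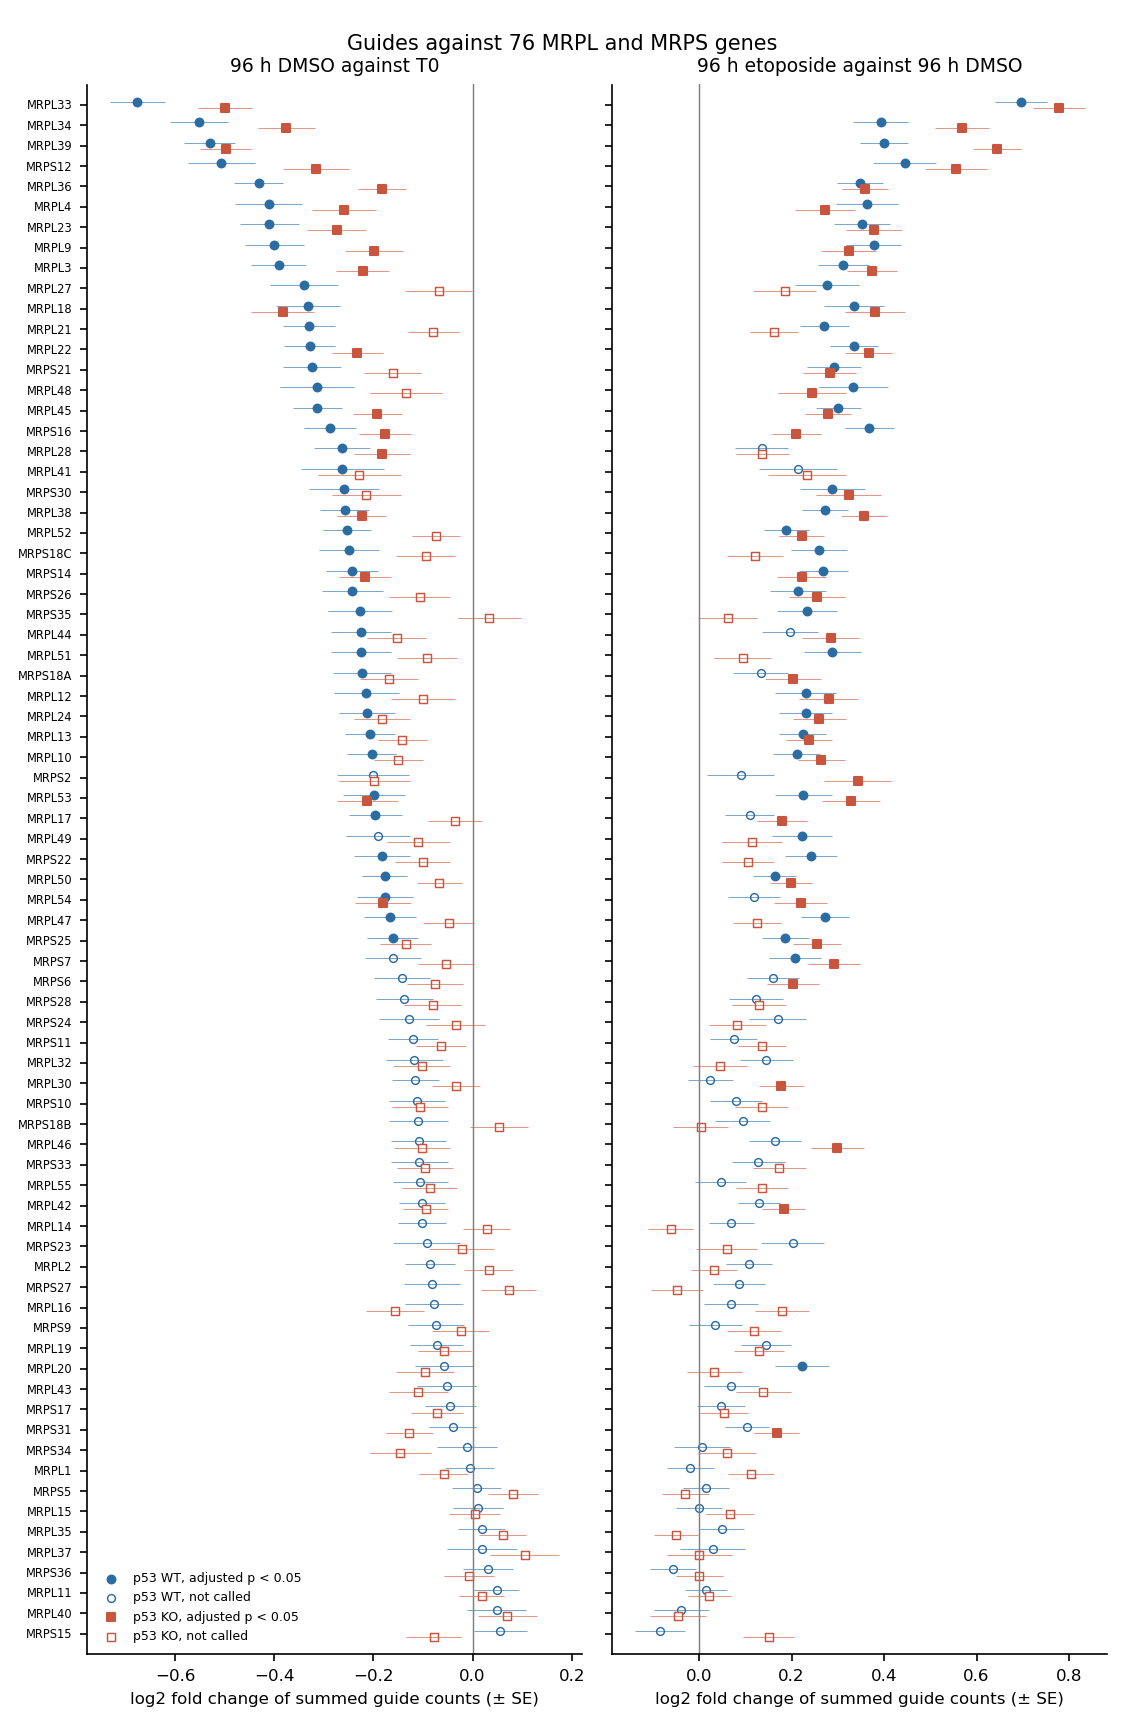
Log2 fold change (x axis, ± standard error) of the summed guide counts of each of the 76 genes (rows, ordered by their change in p53 WT cells) for 96 h of DMSO against T0 (left) and for etoposide against DMSO at 96 h (right), in p53 WT (circles) and p53 KO (squares); filled symbols have an adjusted p below 0.05. Of the genes, 40 fell in WT and 18 in KO on the left, and 37 and 38 rose on the right; both panels use the same DMSO libraries.

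MRPL33, a large-subunit protein with a bacterial counterpart, showed the largest loss. Its guides held 51.8, 53.1 and 52.6 CPM in p53 WT libraries A, B and C at T0, 35.6, 30.6 and 32.0 CPM after DMSO, and 51.6, 54.7 and 53.2 CPM after etoposide. The DMSO libraries lay below all others, and the etoposide libraries overlapped those of T0. In WT cells all DMSO libraries lay below those of T0 for 12.7% of all genes. DMSO against T0 gave −0.68 ± 0.06 (SE, edgeR adjusted p = 1.07e-18), which is 0.626 of the starting level. Its guides differed by these names. The 3 guides named HGLibA were at −0.93, −0.93 and −0.55 on the log2 scale, and the 3 named HGLibB at −0.52, −0.02 and −0.005. With the HGLibB guides alone, MRPL33 was no longer called (−0.20, edgeR adjusted p = 0.398), and 1 HGLibA guide held 25.6 of its 52.5 CPM at T0.

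MRPL39, a large-subunit protein without a bacterial counterpart, was next by p. Its guides held 64.3, 62.7 and 65.8 CPM at T0, 48.3, 41.0 and 43.9 CPM after DMSO, and 56.5, 58.8 and 60.7 CPM after etoposide in p53 WT cells. The 3 groups did not overlap, and etoposide lay between the others. The loss in DMSO was −0.53 ± 0.05 (edgeR adjusted p = 5.77e-15), with all 5 guides lower.

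MRPL34 and MRPL36, both small bacterial-type proteins of the large subunit, followed. MRPL34 held 45.5, 45.8 and 47.0 CPM at T0, 33.2, 29.8 and 31.2 CPM after DMSO, and 39.7, 42.0 and 42.1 CPM after etoposide, again with 3 groups that did not overlap (−0.55 ± 0.06 for DMSO against T0, edgeR adjusted p = 4.81e-13). Of its 6 guides 5 were lower, with values from −0.84 to 0.26. MRPL36 held 69.5, 68.1 and 69.1 CPM at T0, 51.5, 53.8 and 48.0 CPM after DMSO, and 62.0, 64.3 and 68.6 CPM after etoposide. All 6 of its guides were lower in DMSO, between −0.73 and −0.32, the narrowest spread over guides among these 4 genes (−0.43 ± 0.05 for the gene, edgeR adjusted p = 1.45e-11).

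MRPS12, the counterpart of the bacterial protein S12 at the decoding centre, had the largest loss of the small-subunit genes. It held 32.8, 34.2 and 32.7 CPM at T0, 24.8, 22.8 and 22.5 CPM after DMSO, and 33.5, 31.7 and 30.4 CPM after etoposide. Its DMSO libraries lay below all others, and the loss was −0.51 ± 0.07 (edgeR adjusted p = 4.18e-09), with all 5 guides lower. MRPL38, a large-subunit protein without a bacterial counterpart, changed less: 58.6, 59.2 and 59.1 CPM at T0 against 51.1, 47.8 and 49.0 CPM after DMSO, which did not overlap.

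**Figure D2:**
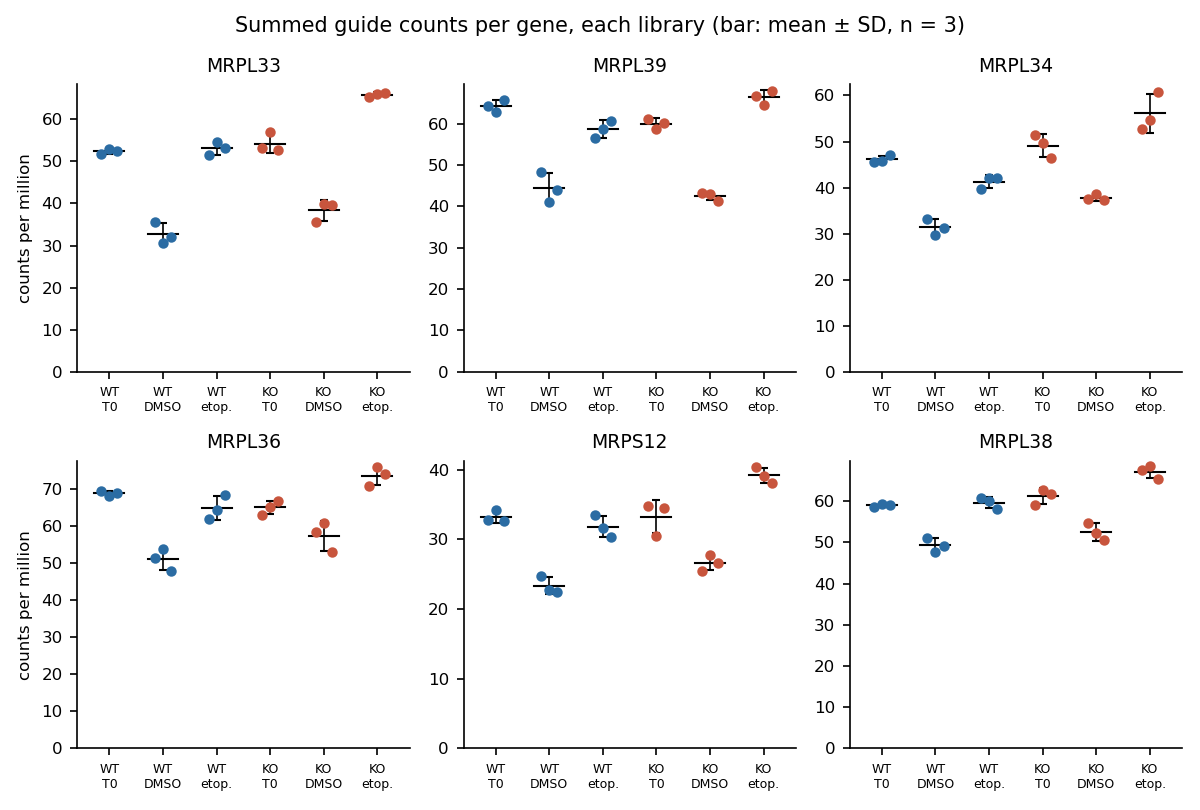
CPM of the summed guides (y axis, from 0) of the 6 members with the smallest p, for each library (points) in p53 WT (blue) and p53 KO (red) at T0, after DMSO and after etoposide; bars are the mean ± SD over 3 libraries. In all 6 panels the DMSO points sit below those of T0 and of etoposide in the same cells.

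The other genes with the largest losses in p53 WT cells were MRPL4 (−0.41) and MRPL3 (−0.39), whose bacterial counterparts reach into the large subunit's core, MRPL23 (−0.41), which lies at the exit of the peptide tunnel, and MRPL9 (−0.40). At the other end, MRPS15 (0.06), MRPL11 and MRPL40 (both 0.05), MRPS36 (0.03), MRPL37 and MRPL35 (both 0.02) were not called. MRPS36, the member that is no ribosomal protein, held 60.0, 60.0 and 56.5 CPM at T0 and 55.9, 61.8 and 62.7 CPM after DMSO, which overlapped. MRPS30 (−0.26) and MRPS18A (−0.22) both fell.

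By place in the ribosome, 17 of the 28 large-subunit proteins with a bacterial counterpart fell in p53 WT cells, with a median of −0.21, as did 14 of the 21 large-subunit proteins particular to mitochondria, with a median of −0.20. In the small subunit, 5 of 17 bacterial-type proteins fell (median −0.14) and 4 of 9 mitochondrial ones (median −0.11). The difference between subunits was not tested. Across the 76 genes, the loss was only weakly related to the level of the transcript at T0 per length (Spearman's rho −0.12 in WT and −0.16 in KO). That is a description across genes, which are not independent replicates.

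Single guides varied widely within a gene. Of the 425 guides, 314 (73.9%) were lower in DMSO than at T0 in p53 WT cells, where 48.7% of all 108368 targeting guides were, and 79 were called lower (1.44% of all guides were). All guides were lower for 17 members, which was not counted over all genes. Summing only the HGLibA guides or only the HGLibB guides, 59 of 76 members were lower with both. Opposite signs, not counted over all genes, were seen in 16 members. Of the 19041 genes with guides of both names, 26.4% were lower with both. With both, 13 members were called lower, where 0.882% of those genes were. Guides against a gene share their target and are not replicates of the condition.

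**Figure D3:**
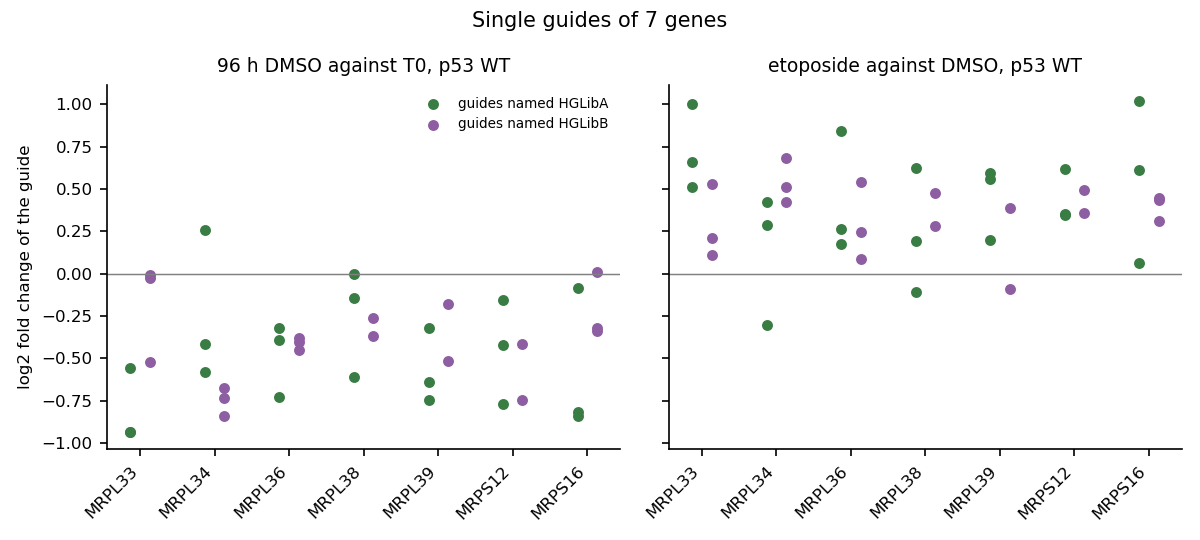
Log2 fold change (y axis) of each guide (points) of 7 genes for DMSO against T0 (left) and etoposide against DMSO (right) in p53 WT cells, with guides named HGLibA in green and HGLibB in purple. The HGLibA guides of MRPL33 lie further from 0 than 2 of its HGLibB guides, while the 6 guides of MRPL36 lie between −0.73 and −0.32 on the left.

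In p53 KO cells 18 of 76 genes fell during growth in DMSO and 0 rose, which is 23.7% of the members, where 2.98% of all genes were called lower and 0.43% higher. Without T0 library A of the KO cells the count was 11, where 439 of 19050 genes were called in either direction. With the HGLibB guides alone it was 5 (219 of 19044 genes). Scaled to the non-targeting guides it was 32, where 1585 of 19050 genes were called in either direction. The median was then −0.15, against −0.05 over all genes. With the scaling used elsewhere the median was −0.10, against 0.00 over all genes. All 18 of these genes were also among the 40 that fell in WT cells, which is 45% of the WT list and 100% of the KO list. The group as a whole held between 3779 and 3808 CPM at T0 and between 3504 and 3508 CPM after DMSO.

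MRPL33 and MRPL39 again led. For MRPL39 the KO libraries held 61.2, 58.7 and 60.2 CPM at T0 and 43.2, 43.0 and 41.3 CPM after DMSO (−0.50 ± 0.05, edgeR adjusted p = 1.26e-12), and for MRPL33 they held 53.2, 56.9 and 52.7 CPM and then 35.6, 39.9 and 39.7 CPM (−0.50 ± 0.06, edgeR adjusted p = 1.49e-11). Neither gene's groups overlapped, but with the HGLibB guides alone MRPL33 was no longer called (−0.13, adjusted p = 0.713). In KO cells all DMSO libraries lay below those of T0 for 9.99% of all genes. MRPL18, a large-subunit protein of the bacterial type, followed with 46.1, 42.1 and 48.4 CPM at T0 against 33.8, 36.5 and 34.3 CPM (−0.38 ± 0.06, edgeR adjusted p = 5.02e-06), a call that was also lost with the HGLibB guides alone (−0.24, adjusted p = 0.141). MRPL34 fell by 0.38 on the log2 scale. MRPS12 fell by 0.32 (edgeR adjusted p = 0.000694), a call that was lost without its most abundant guide (−0.23, adjusted p = 0.093) and with the HGLibB guides alone (−0.40, adjusted p = 0.0634).

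Whether growth losses depended on p53 was tested by the difference of the effects, KO minus WT. By edgeR 0 of 76 members were called (0.0105% of all genes were), as by DESeq2. An unadjusted p below 0.05 by edgeR was found for 12 members, which was not counted over all genes. The differences leaned to weaker losses in KO cells: 62 of 76 were above 0, where 52.7% of all genes were, with a median of 0.07. The largest were MRPL27 (0.27 ± 0.10), MRPS35 (0.26 ± 0.09), MRPL21 (0.25 ± 0.07) and MRPL36 (0.25 ± 0.07), and their adjusted p-values (edgeR) lay between 0.249 and 0.395. For MRPL21 the groups held 57.2 ± 1.94 CPM (SD, n = 3) at T0 and 45.4 ± 2.67 CPM after DMSO in WT cells, and 60.0 ± 2.80 and 56.7 ± 1.45 CPM in KO cells. At the other end lay MRPS34 (−0.14) and MRPS15 (−0.13).

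After 96 h in etoposide, guides against mitoribosomal genes were more abundant than after 96 h in DMSO. In p53 WT cells 37 of 76 genes rose and 0 fell, which is 48.7% of the members, where 1.92% of all genes were called higher and 0.299% lower, and the median was 0.19 against 0.00 over all genes. In p53 KO cells 38 rose and 0 fell, which is 50% of the members, where 3.04% of all genes were called higher and 1.29% lower, and the median was 0.18. The HGLibA guides alone gave 20 members in WT (250 of 19047 genes were called in either direction). The HGLibB guides alone gave 19 in WT (149 of 19044 genes) and 16 in KO (308 of 19044). In KO the HGLibA guides gave 32, with the number over all genes not given here. The lists shared 28 genes, 75.7% of the WT list and 73.7% of the KO list. These comparisons and the growth comparisons use the same DMSO libraries, so a low DMSO library enters both, and the sets of values are given side by side only.

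MRPL33 had the largest change in both cell types, 0.70 ± 0.06 in WT (edgeR adjusted p = 3.47e-19) and 0.78 ± 0.06 in KO (edgeR adjusted p = 3.34e-23). Its KO libraries rose from 35.6, 39.9 and 39.7 CPM in DMSO to 65.2, 66.1 and 66.3 CPM in etoposide, above all 3 KO libraries at T0. With the HGLibB guides alone neither change was called (0.30, adjusted p = 0.232 in WT and 0.32, adjusted p = 0.122 in KO). MRPL39 reached 66.8, 64.5 and 67.9 CPM in KO etoposide libraries (0.64 ± 0.05, edgeR adjusted p = 1.32e-19), with all 5 guides higher, and its change in WT was 0.40 ± 0.05 (edgeR adjusted p = 3.16e-09), lost with the HGLibB guides alone (0.30, adjusted p = 0.146).

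MRPL34 held 37.4, 38.6 and 37.4 CPM in KO cells in DMSO and 52.7, 54.8 and 60.8 CPM in etoposide (0.57 ± 0.06, edgeR adjusted p = 7.18e-14). In WT cells it changed by 0.39 ± 0.06 (edgeR adjusted p = 5.71e-07), and with the HGLibA guides alone this was no call (0.23, adjusted p = 0.169). MRPS12 held 25.5, 27.7 and 26.7 CPM in KO cells in DMSO and 40.4, 39.1 and 38.1 CPM in etoposide (0.56 ± 0.07, edgeR adjusted p = 1.24e-10). All 5 of its guides were higher, between 0.44 and 0.76. In WT cells it changed by 0.45 ± 0.07, with all 5 guides higher, and this call was lost with the HGLibB guides alone (0.42, adjusted p = 0.0647).

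MRPL36 and MRPL38 completed the 6 members with the smallest p. MRPL36 held 58.5, 60.8 and 52.9 CPM in KO cells in DMSO and 70.9, 76.02 and 74.1 CPM in etoposide (0.36 ± 0.05, edgeR adjusted p = 1.58e-08), with all 6 guides higher. MRPL38 held 54.7, 52.2 and 50.5 CPM and then 67.5, 68.4 and 65.4 CPM (0.36 ± 0.05, edgeR adjusted p = 2.23e-08), with all 5 guides higher. Neither gene's groups overlapped, and etoposide lay above DMSO without overlap for 9.7% of all genes in KO cells. MRPS16, another bacterial-type protein of the small subunit, rose in WT cells by 0.37 ± 0.05 (edgeR adjusted p = 1.24e-07), with all 6 guides higher, and MRPL9 rose by 0.38.

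The members at the low end of the etoposide comparison were not called. In WT cells they were MRPS15 (−0.08), MRPS36 (−0.06), MRPL40 (−0.04), MRPL1 (−0.02), MRPL15 (0.00) and MRPS34 (0.01), and in KO cells MRPL14 (−0.06), MRPL35, MRPS27 and MRPL40 (all −0.05), MRPS5 (−0.03) and MRPL37 (0.00). By place, 16 of 28 bacterial-type and 11 of 21 mitochondrial large-subunit genes rose in WT, and 15 and 13 did in KO. In the small subunit it was 6 of 17 and 4 of 9 in WT, and 7 and 3 in KO. Of the 425 guides, 318 (74.8%) were higher in WT and 315 (74.1%) in KO, where 49.3% and 49.2% of all guides were. Single guides called higher were 51 in WT and 61 in KO, where 0.364% and 0.64% of all guides were, and 1 guide in WT was called lower, where 0.0314% of all guides were.

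The etoposide effect did not differ between cell types at the threshold for any member by edgeR or DESeq2 (0 of 76, where 0.0577% of all genes were called by edgeR). By edgeR 9 members had an unadjusted p below 0.05, which was not counted over all genes. MRPL39 came nearest, with a difference KO minus WT of 0.24 ± 0.07 (edgeR adjusted p = 0.172). Next were MRPS15 (0.23 ± 0.08, adjusted p = 0.224) and MRPS2 (0.25 ± 0.10, adjusted p = 0.356). The median difference was 0.03, and 48 of 76 were above 0, where 48.6% of all genes were.

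Set against T0 rather than DMSO, the etoposide libraries of p53 WT cells gave 0 calls among the 76 genes by edgeR or DESeq2 (0.866% of all genes were called). By edgeR 5 members had an unadjusted p below 0.05, which was not counted over all genes. The median was 0.01, and the whole group held between 3732 and 3774 CPM in etoposide, against 3762 to 3779 CPM at T0. The lowest values were those of MRPL34 (−0.16 ± 0.06, edgeR adjusted p = 0.271) and MRPL39 (−0.13 ± 0.05, edgeR adjusted p = 0.36). All 6 guides of MRPL34 and all 5 of MRPL39 were below 0. MRPL20 was highest (0.17 ± 0.06, edgeR adjusted p = 0.249). How often cells divided in each arm is not given in the sources used here.

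In p53 KO cells the etoposide libraries lay somewhat above T0. The group held between 3982.5 and 4017.6 CPM in etoposide, above the 3779 to 3808 CPM at T0, and 68 of 76 members were above 0, where 50.9% of all genes were, with a median of 0.07. Members that rose were 4: MRPL33 (0.28 ± 0.05, edgeR adjusted p = 0.000534), MRPS7, a protein of the small subunit's head (0.24 ± 0.06, edgeR adjusted p = 0.0087), MRPS12 (0.24 ± 0.07, edgeR adjusted p = 0.0415) and MRPL36 (0.18 ± 0.05, edgeR adjusted p = 0.0441). That is 5.26% of the members, where 0.378% of all genes were called higher and 0.74% lower. Over all genes, 213 were called in either direction. The count of members was 1 without T0 library A (101 of all genes), T0 library B (93) or etoposide library B (121). It was 2 without T0 library C (124) or etoposide library C (129). With 1 library left out at a time, the median over members lay between 0.07 and 0.08. With the HGLibB guides alone the count was 0 (46 of all genes). It was 2 with the HGLibA guides alone (91), scaled to the non-targeting guides (328) or by limma on the mean over guides (154). MRPS7 held 43.1, 43.96 and 48.7 CPM at T0, and 51.2, 55.7 and 53.5 CPM in etoposide.

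At T0 the KO and WT pools differed little in these guides. MRPL4 (0.35 ± 0.06, edgeR adjusted p = 0.000372), MRPS23 (0.25) and MRPL18 (0.20) were higher in KO and MRPL30 was lower (−0.22), 5.26% of the members, near the 4.57% of all genes that were called. MRPL4 held 32.4, 32.5 and 38.4 CPM in WT and 44.4, 44.1 and 43.6 CPM in KO. The count was 2 without WT library B (336 of all genes), without KO library A (406) or with the HGLibB guides alone (544). With the HGLibA guides alone it was 1 (666). MRPL4 was no longer called without its most abundant guide (0.24, edgeR adjusted p = 0.086). The calls of MRPL18 and MRPS23 were lost in 9 and 5 of 16 other fits each, MRPL18 also by DESeq2 (adjusted p = 0.0639), and that of MRPL30 in 1.

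Guides against other genes of mitochondrial translation gave the following counts in the same fits. Beside them, 5.44% of all genes were called lower during growth in WT and 2.98% in KO. With etoposide, 1.92% of all genes were called higher in WT and 3.04% in KO, and 1.29% were called lower in KO. Of 7 mitoribosomal proteins with other names, 5 fell in p53 WT cells in DMSO and 3 in KO, and 5 and 4 rose with etoposide. Among them was MRP63, the older symbol of MRPL57, at −0.65 ± 0.06 in WT and −0.39 ± 0.06 in KO during growth (edgeR adjusted p = 2.1e-15 and 9.54e-07). Of 20 mitochondrial aminoacyl-tRNA synthetases and amidotransferase subunits, which charge the tRNAs, 9 fell in WT and 4 in KO, led by IARS2 (−0.72 in WT), MARS2 (−0.52) and SARS2 (−0.51), and 11 and 9 rose with etoposide.

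Of 14 translation factors, 2 fell in WT during growth, the elongation factors GFM1 (−0.54 ± 0.05, edgeR adjusted p = 9.53e-16) and TUFM (−0.28 ± 0.05), and 1 fell in KO, OXA1L (−0.17), which inserts the products into the inner membrane. In KO cells GFM1 was at −0.16 (edgeR adjusted p = 0.0503). With etoposide 3 rose in each cell type, and C12orf65, a release factor homolog, fell in KO (−0.20). Of 24 measured assembly factors, 5 fell in WT and 4 in KO, led by RPUSD4, which modifies the large ribosomal RNA (−0.38 ± 0.05 in WT, −0.19 ± 0.05 in KO), and 6 and 10 rose with etoposide. The medians during growth in WT were −0.21, −0.18, −0.04 and −0.08 for the 4 lists in this order, beside 0.00 over all genes.

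Transcripts of the 77 members were all detected and all passed the filter on low counts. At T0 they spanned 3.45 to 143 RPKM (CPM divided by gene length in kilobases, from the deposited gene lengths), with a median of 30 RPKM. The members with the highest CPM were MRPL37, a large-subunit protein particular to mitochondria (143.7 and 142.2 RPKM in libraries A and B), MRPL38 (85.0 and 80.9), MRPL4 (75.2 and 74.4) and MRPS2 (69.4 and 65.2). Of these 4, MRPL4 and MRPS2 were nearest per length, and their libraries did not overlap. The members with the lowest CPM were MRPS18C (8.44 and 9.13), MRPS36 (6.40 and 5.90), MRPS31 (5.84 and 5.62) and MRPS24 (3.19 and 3.71). MRPS36 and MRPS31 lay within the spread of the MRPS36 libraries of each other per length. In RNA of bulk cultures, fewer cells of a kind and less RNA per cell cannot be told apart.

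With medium from etoposide-treated p53 WT donors, against medium from their DMSO-treated counterparts, 15 of 77 transcripts rose and 0 fell. That is 19.5% of the members, where 34.6% of all 15391 genes tested were called in either direction, 16.1% higher and 18.5% lower. The median was 0.11 against 0.01 over all genes, and 59 of 77 were above 0, where 51.4% of all genes were. MRPL49, a large-subunit protein, held 130.8 and 121.7 CPM with DMSO medium and 178.6 and 175.0 CPM with etoposide medium (0.49 ± 0.07, edgeR adjusted p = 2.77e-05). MRPL32, which is cut to its mature form inside mitochondria, held 40.9 and 41.9 CPM and then 57.1 and 60.0 CPM (0.50 ± 0.08, edgeR adjusted p = 4.73e-05). Both pairs were well apart. With 2 libraries a group, etoposide lay above DMSO without overlap for 34.7% of all genes, and below for 33.6%. MRPS25 (0.42), MRPL39 (0.41) and MRPL40 (0.36) also rose, while MRPL1 (−0.22), MRPS27 (−0.18), MRPL4 (−0.16) and MRPS10 (−0.15) were lowest and not called. By DESeq2 the count was 9, where 4299 of 15391 genes were called. It fell when any 1 library was left out, and where it fell most, fewer genes were called over all too. In those fits the median over members lay between 0.06 and 0.16.

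With medium from p53 KO donors, 6 members rose and 14 fell. Together this is 26% of the members, where 37.3% of all genes were called, 18.8% higher and 18.5% lower, and the median was −0.06 against −0.01 over all genes. MRPS34, of the small subunit, held 68.4 and 78.1 CPM with DMSO medium and 44.1 and 52.0 CPM with etoposide medium (−0.61 ± 0.10, edgeR adjusted p = 6.23e-05). MRPL12, the protein of the ribosome's stalk, held 119.5 and 132.5 CPM and then 91.7 and 93.9 CPM (−0.44 ± 0.08, edgeR adjusted p = 9.02e-05). Neither pair of groups overlapped, but etoposide lay below DMSO without overlap for 32.4% of all genes, and above for 32.1%. MRPL55 (−0.48), MRPL43 (−0.38) and MRPS27 (−0.30) also fell. MRPL49 (0.41 ± 0.07, edgeR adjusted p = 0.000162) and MRPL39 (0.34) were called higher, as with WT donors. MRPL42 (0.36) and MRPL50 (0.34) were called too, but each lost its call in 4 of 9 other fits. MRPL42 was at 0.20 without KO DMSO library B (edgeR adjusted p = 0.212), and MRPL50 at 0.19 without KO etoposide library B (edgeR adjusted p = 0.292). The count was 13 by DESeq2, where 4773 of 15391 genes were called. It was 10 when only the 4 libraries compared entered the fit (4311 of 14735 genes). It fell most without KO etoposide library A, where fewer genes were called over all too, and rose without KO DMSO library A. With 1 library left out at a time, the median over members lay between −0.12 and −0.02. The 2 libraries with DMSO medium of KO donors differed more from each other than other replicates did (12.1 in chi-square per degree of freedom over all genes tested, against 1.87 to 4.95 in the other groups). The part of this in the result was not tested.

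**Figure D4:**
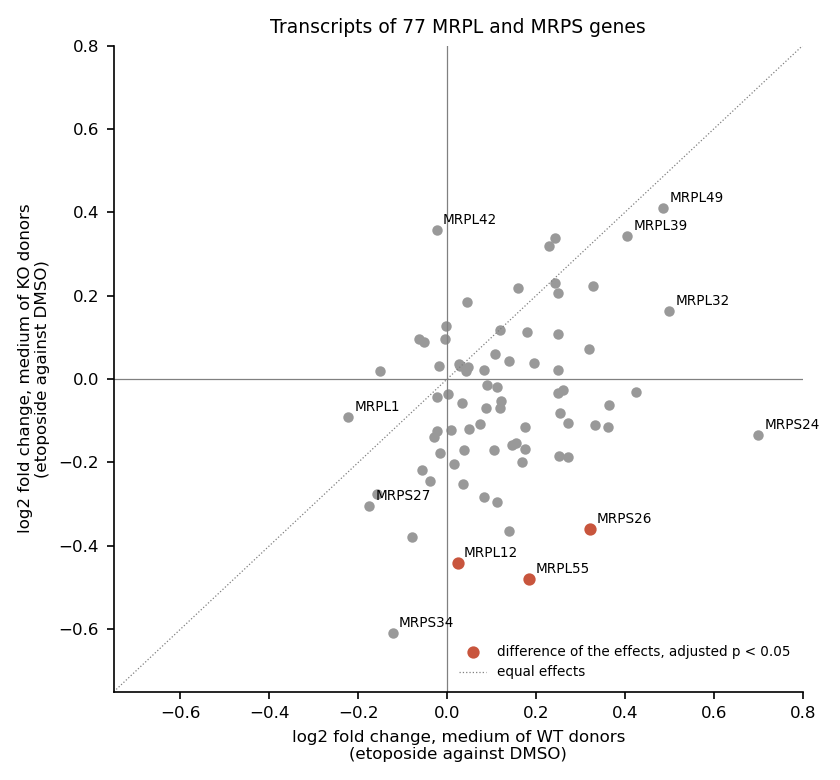
Log2 fold change of each of 77 transcripts for etoposide against DMSO medium of p53 WT donors (x axis) and of p53 KO donors (y axis); the dotted line marks equal effects, and red points are the 3 genes for which the difference had an adjusted p below 0.05. Of the genes, 62 lie below the line.

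The difference between donors, KO effect minus WT effect, was below 0 for 62 of 77 members, where 50.1% of all genes were, with a median of −0.16 against 0.00. It was called for MRPS26 (−0.68 ± 0.16, edgeR adjusted p = 0.0244), MRPL55 (−0.66 ± 0.15, edgeR adjusted p = 0.0261) and MRPL12 (−0.47 ± 0.11, edgeR adjusted p = 0.0261), 3.9% of the members, where 2.71% of all genes were called, 1.9% higher and 0.806% lower. MRPS26, of the small subunit, held 26.0 and 27.9 CPM with WT DMSO medium, 30.6 and 36.9 CPM with WT etoposide medium, 34.0 and 41.9 CPM with KO DMSO medium, and 29.3 and 29.97 CPM with KO etoposide medium. MRPL55, of the large subunit, held 17.9 and 15.6, 18.4 and 19.7, 19.0 and 20.8, and 13.8 and 14.7 CPM in the same order. In each gene the KO DMSO libraries lay above those of WT DMSO, and those of KO etoposide below those of WT etoposide. For MRPL12 the WT libraries held 103.0 and 100.1 CPM with DMSO medium and 98.9 and 107.7 CPM with etoposide medium, which overlapped.

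How many members were called depended on single libraries, and so did the number called over all genes. With 1 library left out at a time, the median difference over members lay between −0.24 and −0.13. The count was 9 without the filter on low counts, where 863 of 22016 genes were called. With the replicate letter as a block it was 5 (410 of 15391 genes). When only the 8 libraries compared entered the fit it was 1 (164 of 15225 genes). Where a library was left out, the group left with 1 library is assumed to vary like the others.

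**Figure D5:**
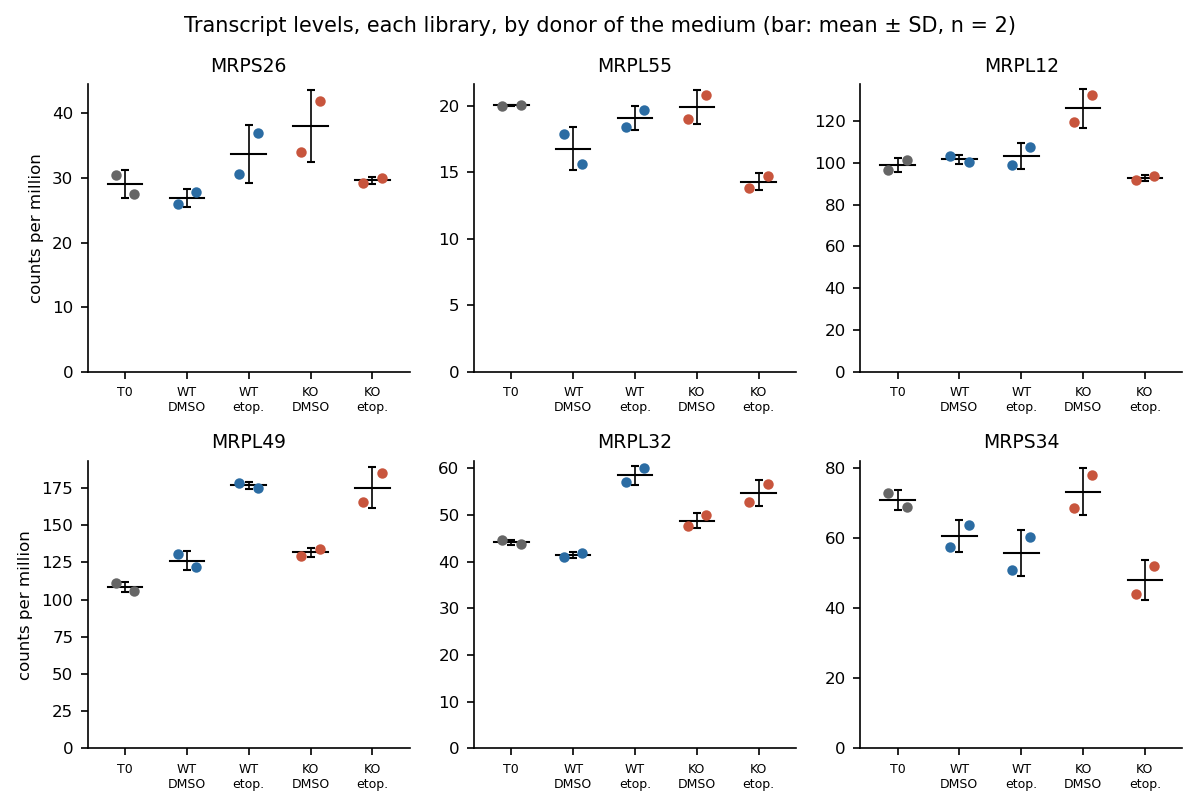
CPM (y axis, from 0) of 6 transcripts in each library (points) at T0 (grey) and after medium of p53 WT (blue) or p53 KO (red) donors treated with DMSO or etoposide; bars are the mean ± SD over 2 libraries. MRPS26, MRPL55 and MRPL12 (top row) are higher in KO DMSO than in KO etoposide medium, and MRPL49 is higher in etoposide than in DMSO medium of either donor.

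The upstream sequences of the 3 genes whose difference was called are shown because the comparison of donors singled them out. They are the 250 bases before the annotated start of each gene, 5′ to 3′ on the gene's strand, from RefSeq on GRCh38.p14, with the match to a searched motif in capitals.
MRPS26, chr20:3045802-3046051, plus strand: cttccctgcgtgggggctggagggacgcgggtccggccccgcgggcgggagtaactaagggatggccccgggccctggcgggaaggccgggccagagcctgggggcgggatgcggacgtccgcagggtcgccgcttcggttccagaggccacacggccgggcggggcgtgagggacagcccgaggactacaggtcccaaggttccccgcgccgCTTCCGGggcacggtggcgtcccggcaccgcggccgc
MRPL55, chr1:228109300-228109549, minus strand: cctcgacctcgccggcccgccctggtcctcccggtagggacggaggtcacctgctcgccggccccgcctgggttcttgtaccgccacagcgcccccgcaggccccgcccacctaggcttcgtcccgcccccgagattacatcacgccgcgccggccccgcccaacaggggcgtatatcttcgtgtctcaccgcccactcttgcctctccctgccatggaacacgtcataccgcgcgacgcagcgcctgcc
MRPL12, chr17:81703117-81703366, plus strand: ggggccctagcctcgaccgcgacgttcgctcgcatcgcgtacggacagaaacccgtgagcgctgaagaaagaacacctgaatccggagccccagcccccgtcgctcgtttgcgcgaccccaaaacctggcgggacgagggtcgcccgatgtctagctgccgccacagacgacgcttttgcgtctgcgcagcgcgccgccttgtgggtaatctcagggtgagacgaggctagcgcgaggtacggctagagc

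Motifs of 3 factors known for nuclear genes of mitochondria were searched on both strands of such windows, the ETS core in 7 letters, the NRF1 core in 10 letters and the YY1 core in 11 letters. The ETS motif CCGGAAG was in 22 of the 68 members with an entry (32.4%), where 8.82% of all 27305 promoters held it. The NRF1 motif was in 8 (11.8% against 5.53%) and the YY1 motif in 1 (1.47% against 0.256%). No motif contains another, and each was counted separately. Of the 3 genes shown, MRPS26 has 1 ETS match, on the opposite strand 37 to 31 bases before the start, and MRPL55 and MRPL12 have none of the 3. A match is a description of letters, not of a bound site. The table had no entry for MRPL2, MRPL10, MRPL13, MRPL15, MRPL21, MRPL23, MRPL35, MRPS28 and MRPS36.

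Compared directly, etoposide medium of KO against WT donors changed 4 members, 5.19% of them, where 13.9% of all genes were called. MRPS30 was higher with KO medium (79.1 and 86.1 against 65.5 and 67.9 CPM, 0.31 ± 0.08, edgeR adjusted p = 0.0121), and MRPS9 (−0.39), MRPL55 (−0.42) and MRPS33 (−0.46) were lower. MRPS9, a small-subunit protein of the bacterial type, held 32.3 and 32.6 CPM against 40.0 and 45.5 CPM (edgeR adjusted p = 0.00778). Neither MRPS30 nor MRPS9 overlapped between groups, but KO lay above WT without overlap for 28.2% of all genes, and below for 29.5%. MRPS33 was not called by DESeq2 (adjusted p = 0.0877). The count of members was 7 when only these libraries entered the fit, where 2989 of 14881 genes were called. It fell when any 1 library was left out, as did the number called over all genes. In those fits the median over members lay between −0.09 and 0.02.

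Conditioned medium itself, from DMSO-treated donors against T0, changed 21 members with WT donors (11 higher, 10 lower), 27.3% of them, where 35.6% of all genes were called, and 27 with KO donors (23 higher, 4 lower), 35.1% of them, where 36.9% of all genes were. Both comparisons use the same T0 libraries, so their values are set side by side only. MRPS18B, of the small subunit, held 94.7 and 95.2 CPM at T0, 140.4 and 142.4 CPM with WT and 154.4 and 134.3 CPM with KO medium (0.57 ± 0.08 and 0.60 ± 0.08, edgeR adjusted p = 7.65e-06 and 4.18e-06). MRPS27, a small-subunit protein of the pentatricopeptide repeat family, held 48.0 and 48.4, 69.4 and 70.0, and 70.7 and 76.02 CPM (0.53 and 0.61). MRPL34 held 17.5 and 15.7, 24.02 and 24.99, and 26.1 and 26.8 CPM (0.56 and 0.67). None of the conditioned libraries overlapped T0 for these 3 genes. Over all genes, WT medium lay above T0 without overlap for 36.5% and below for 35.4%. For KO medium the shares were 32.3% and 35.1%.

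MRPS24 had the lowest values, 2.22 and 2.58 CPM at T0, 0.918 and 0.860 CPM with WT medium and 0.999 and 1.18 CPM with KO medium (−1.43 ± 0.29 and −1.13 ± 0.28, edgeR adjusted p = 0.000677 and 0.0036), and it is the member with the fewest reads, down to 17 counts in a library. MRPL41 (−0.51) and MRPL15 (−0.44) fell with WT medium, and MRPS33 was called lower with both (−0.44 and −0.42) but lost the call in 4 of 9 other fits of each, DESeq2 included (adjusted p = 0.0545 and 0.0763). With KO medium MRPL15 was at −0.24, a call lost in 7 of 9 other fits (DESeq2 adjusted p = 0.122). With WT medium the count was 34 when only the libraries compared entered the fit, where 7098 of 14890 genes were called. Counts fell with WT medium when any 1 library was left out, and with KO medium when a T0 library was. The number called over all genes fell in the same fits. Leaving out 1 library at a time, the median over members was −0.03 to 0.01 with WT medium and 0.09 to 0.17 with KO medium. MRPL33, which led the screen, held 30.9 and 32.6 CPM at T0 and between 26.2 and 32.5 CPM in the other libraries, and was called in none of the RNA comparisons.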

How the data were processed

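Guide counts in genomic DNA (18 libraries) and gene-level RNA counts (10 libraries) were used as the authors deposited them, as raw counts; both tables held whole numbers. Per the submitters' processing notes, Bowtie2 and DESeq2 were used for the screen, and DESeq2 and hg19 for the RNA. The sources used here do not name the RNA aligner, annotation or strand setting, nor the guide library, so reads of overlapping genes cannot be told apart. No per-sample column was left unmapped.

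Guide counts were summed per gene without the 999 non-targeting guides. Each table was fitted as a whole with edgeR 4.0.16 (R 4.3.3; TMM, filterByExpr, robust quasi-likelihood test, all groups in one fit, 12 residual degrees of freedom in the screen and 5 in the RNA), with Benjamini-Hochberg adjustment over all genes and a threshold of 0.05. Standard errors were the log2 fold change divided by the root of F. RPKM used the gene lengths in the deposited table. The code was tested on simulated data. Depth was 30437296 to 48230735 counts in the screen and 16825669 to 20290764 counts in the RNA, which sets the precision of low members.

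Alternatives were DESeq2 1.42.0, limma 3.58.1 on the mean over guides, other scalings, no filter, the most abundant guide left out, only the libraries compared, a replicate block and leaving out each library. Fits on the HGLibA or HGLibB guides alone were added after seeing the data. Same-lettered libraries of different groups correlated between −0.05 and 0.17 in their deviations from the group means in the screen (45 pairs). In the RNA they did so between −0.04 and 0.1 (20 pairs), and letters were not taken to pair samples. With 2 libraries a group in RNA, A and B deviate from their mean by opposite amounts, so the values of the A pairs repeat as those of the B pairs.

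The genes named were the 6 highest, 6 lowest and 6 of smallest p in each screen comparison, and 4 of each in RNA with the 4 highest and lowest in CPM at T0. The exceptions are genes named for lying near the threshold (MRPL54, MRPL41, MRPL49 and MRPS7) and those named for their annotation. The members and lists were chosen with earlier results of these data known. An authors' table comparing media was not used.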

Additional observations from a re-analysis of the deposited data

Results flagged for a closer look

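The effect of etoposide medium differed between p53 KO and p53 WT donors for 3 of the 77 mitoribosomal transcripts by the test of the difference itself (edgeR's interaction term, 2 libraries in each of 4 groups). That is 3.9% of the members, all lower, where 2.71% of all 15391 genes tested were called, 1.9% higher and 0.806% lower. The differences, KO effect minus WT effect, were −0.68 for MRPS26 (adjusted p = 0.0244), −0.66 for MRPL55 (adjusted p = 0.0261) and −0.47 for MRPL12 (adjusted p = 0.0261). For MRPS26 the change was 0.32 with WT medium and −0.36 with KO medium. None of the 3 was called when WT DMSO library A was left out.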

How the results depend on the processing

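Of 893 refits of the 73 single-gene results, 783 kept direction and call, 110 kept the direction and lost the call, and 0 reversed. The 73 were chosen as called, with small p or extreme change, and the refits share their libraries. The lack of reversals is therefore no independent support. Counts of members called changed as follows. Where they moved by over 1.5 times, the number called over all genes differed from that of the fit used above too. Scaling to the non-targeting guides gave 32 for growth in p53 KO, where 1585 of all 19050 genes were called. It gave 2 for etoposide against T0 in KO (328 of all genes), and limma on the mean over guides also gave 2 there (154 of all genes). Without the most abundant guide, 1 member was called for etoposide against T0 in WT. The HGLibA guides alone gave 20 for etoposide against DMSO in WT, 2 for etoposide against T0 in KO and 1 at T0. The HGLibB guides alone gave 22 and 5 for growth in WT and KO, 19 and 16 for etoposide against DMSO, 0 for etoposide against T0 in KO and 2 at T0. In RNA, DESeq2 gave 9 and 13 for etoposide medium of WT and KO donors, and the difference had 9 without the filter. With only the libraries compared, the counts were 10 for KO etoposide medium (4311 of 14735 genes were called) and 1 for the difference (164 of 15225). They were 7 for KO against WT medium (2989 of 14881) and 34 for WT DMSO medium against T0 (7098 of 14890). The replicate block gave 5 for the difference in RNA and moved no other count by over 1.5 times (41 and 19 for growth in WT and KO). The cause was not tested for any of these. Leaving out 1 library at a time gave 31 to 37 and 11 to 16 for growth in WT and KO, 28 to 33 and 31 to 37 for etoposide against DMSO, 0 in WT and 1 to 4 in KO for etoposide against T0, 2 to 3 at T0, and 0 for both KO minus WT differences. In RNA it gave 5 to 12 and 8 to 22 for etoposide medium of WT and KO donors, 0 to 20 for their difference, 0 to 2 for KO against WT medium, and 12 to 13 and 12 to 31 for DMSO medium of WT and KO donors against T0. With 2 libraries a group in RNA, the spread is set mostly by the other groups, and MRPS24 had as few as 17 counts.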
